A study of Xenopus laevis with 9 samples.

Results

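Heterotrimeric G proteins and the cyclic AMP pathway were followed across 70 probesets of 46 genes on an Affymetrix GeneChip of the frog Xenopus laevis, out of 15491 probesets and 6485 named genes on the arrays. A probeset was taken when its only gene symbol began with gna, gnb, gng, rgs, adcy, prkac, prkar, arrb, grk, adra, adrb, adora, s1pr, lpar, ptger or pde followed by the form of name these families use. No single-symbol probeset for grk, adra, adrb, s1pr or ptger was found. The pattern also caught the neuropeptide gene adcyap1, its receptor adcyap1r1 and phosphodiesterases that act on cyclic GMP. Of the probesets, 34 carried symbols of the .L and 36 of the .S subgenome of this allotetraploid species. Numbers in brackets after a symbol tell apart several probesets of the same symbol.

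The 3 groups of 3 arrays each came from wild-type tadpoles operated at stage 50. L were pools of 5 lenses, taken at surgery from the tadpoles that, per the study's account of the sampling, later gave the R corneas. R were pools of 7 to 8 corneas collected 3 days after lens removal, when the cornea can begin to form a new lens, and S were pools of 7 to 8 corneas collected 3 days after a sham operation that left the lens in place. The methods give larger pools than the labels do, state that corneal samples held some surrounding epidermis, and state that RNA was amplified before labelling. All values are robust multi-array average (RMA) intensities on a linear scale, and each array measured 1 pool, so the p-values below measure only the spread between these pools.

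A G protein couples a cell-surface receptor to effectors inside the cell. On activation the receptor makes the α subunit exchange GDP for GTP and separate from the βγ pair, and RGS proteins end the signal by speeding GTP hydrolysis. Stimulatory α subunits switch on adenylyl cyclase, inhibitory ones restrain it, and the cyclic AMP formed releases the catalytic subunits of protein kinase A from their regulatory subunits until phosphodiesterases break it down. In photoreceptors the same design serves vision, with transducin as the G protein and a cyclic GMP phosphodiesterase as its effector.

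The arrays fell into lens and cornea, with a median correlation over all probesets of 0.687 between L and S arrays, 0.710 between L and R arrays and 0.953 between R and S arrays. Lens markers were higher in L than in S for 19 of 19 probesets, and cornea epithelium markers were lower in L for 25 of 26. R2 and S4 stood apart in different respects. R2 carried photoreceptor transcripts, with a summed intensity of 562.3 over 16 photoreceptor probesets outside the members (nrl left out, since its lens intensity was high on every L array), against 116.6 and 28.6 in R1 and R3 and 16.2 to 16.5 in S. The same sum was 53.4 to 220.2 in L. S4 had a variance ratio of 0.232, against 1.235 for S1 and 1.343 for S3. The ratio divides an array's variance about the average of the other arrays in its group by the variance of their difference. Its least value is 0.25 where errors are independent between arrays and also between probesets. Probesets that vary together can take it lower in separate pools, so the ratio does not show whether S4 was separate. By the same ratio R3 was the furthest from the other R arrays over all probesets, at 1.29 against 0.619 for R2 and 0.533 for R1. Counts of members called and some results that rest on R2 or S4 are given with and without them. All tests with every array counted S1, S3 and S4 as separate pools. Their p-values against S would be too small if S4 was not separate. Since each pool is a bulk tissue, fewer cells of a type and less RNA per cell cannot be told apart.

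Many members were dim. In 29 of 70 every group mean was under 4, where the arrays' medians were 2.99 to 3.29, and the files hold no detection calls. Group means fell below the 5th percentile of the arrays (0.984 to 1.06) for 5 members in L, 3 in R and 5 in S, and a difference against such a mean has no exact size. Near-identical .L and .S copies may share signal, and the probeset that carries the _x_at mark can bind other transcripts.

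**Figure D1:**
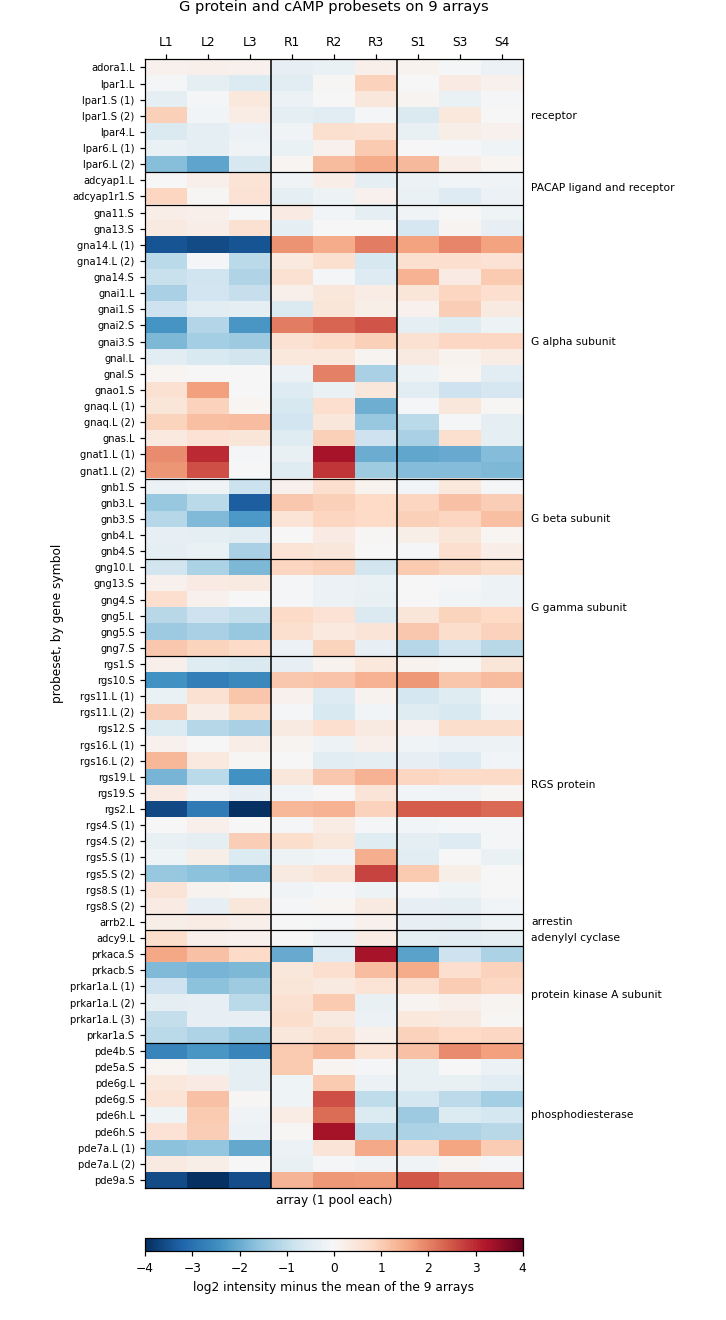
Log2 intensity of the 70 probesets (rows, grouped by role) on the 9 arrays (columns: lens L, cornea after lens removal R, sham cornea S), each row shown relative to its mean over the 9 arrays and coloured between -4 and 4. The L columns differ from the R and S columns in most bright rows, while R2 stands out in the gnat1, pde6g and pde6h rows.

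Between corneas after lens removal and sham corneas, 1 of the 70 members was higher and 0 were lower at a limma adjusted p under 0.05, taken over all probesets, beside 0.484% higher and 0.639% lower among all probesets (1.12% in either direction). At an unadjusted p under 0.05 the count was 9 of 70, or 12.9%, against a background of 14.5%, and in 13 of 70 the R and S values did not overlap, against 22.2% (7 with R above S, against 12.3%, and 6 with R below S, against 9.81%). The median log2 difference R minus S was 0.06 over the members and 0.06 over all probesets. The count of members called was 1 without R2, 1 without S4 and 0 without both (297, 60 and 48 of all probesets).

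That member was gnai2.S, which encodes an inhibitory α subunit. Its intensity was 10.05, 12.2 and 14.2 in R1, R2 and R3, against 1.93, 1.74 and 2.135 in S1, S3 and S4. Every R array lay above every S array, and R2 lay between the other R arrays. The R minus S difference was 2.64 on the log2 scale (SE 0.31, limma adjusted p = 0.00468), or 6.24-fold. The call held without R2 (2.63, adjusted p = 0.0144) and without S4 (2.71, adjusted p = 0.0294) and was lost without both (2.70, adjusted p = 0.0591). In the lens the probeset read 0.481, 1.10 and 0.493, a mean below the 5th percentile. It was lower there than in R (log2 difference -4.23, adjusted p = 4.33e-06) and than in S (-1.59, adjusted p = 0.00207), neither with an exact size. The paper's quantitative PCR of this gene went the other way for the lens, with more in lens than in sham cornea. The paper had listed this gene as higher in R on these same arrays, and drew it for PCR from that list. That PCR also found more in R than in S, the direction seen here, by a larger factor.

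Mammalian leukocytes are known to express gnai2 strongly. Of 12 leukocyte probesets for 8 of 19 listed genes, 0 passed the limma test between R and S and 1 had an unadjusted p under 0.05, and their summed intensity was 179.1 to 296.9 in R and 262.7 to 281.8 in S. The part of such cells in the gnai2.S difference was not tested.

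gng7.S encodes a γ subunit found with the olfactory-type stimulatory α subunit in mammalian striatum. It read 3.895, 8.399 and 3.63 in R1, R2 and R3, against 2.04, 2.62 and 2.12 in S1, S3 and S4. The groups did not overlap, and R2 was 2.16-fold above the next R array. The log2 difference R minus S was 1.13 (SE 0.30, adjusted p = 0.132), and 0.74 without R2 (adjusted p = 0.104). With array weights it passed (adjusted p = 0.0254). In lens gng7.S read 9.59, 8.34 and 7.67, above all S arrays and above R1 and R3, with a log2 difference L minus S of 1.92 (SE 0.30, adjusted p = 0.000586).

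rgs2.L encodes an RGS protein that acts mainly on Gq. Its intensity was 43.1, 44.5 and 32.2 in R1, R2 and R3, against 91.3, 92.0 and 82.1 in S1, S3 and S4. Each R array lay well below each S array. The log2 difference was -1.16 (SE 0.32, adjusted p = 0.147), which missed the threshold on log2 intensities and passed it where 1 or 8 was added to each intensity before the logarithm (adjusted p = 0.0459 and 0.00622).

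The remaining members with the smallest p-values between R and S did not pass. The cyclic nucleotide phosphodiesterase pde9a.S, selective for cyclic GMP, read 47.5, 62.4 and 60.8 in R, against 104, 77.8 and 76.4 in S (log2 difference -0.59, adjusted p = 0.289). The cyclic AMP phosphodiesterase pde4b.S read 104, 125 and 73.8 in R, against 114, 186 and 158 in S (-0.60, adjusted p = 0.311). For pde9a.S the groups were apart, and for pde4b.S R2 exceeded S1. The log2 differences of the γ subunit gng5.S, the regulatory subunit prkar1a.S and the Gq-class α subunit gna14.S were -0.39, -0.42 and -0.91 (adjusted p 0.2625 to 0.3215), while β-arrestin arrb2.L, which shuts off and internalises receptors, was at 0.32 (adjusted p = 0.374). Beside these values, 26 cornea epithelium probesets summed to 2541 to 2743 in R, against 2841 to 3330 in S, and 7 pigment cell probesets to 125.5 to 171.4 in R, against 224.9 to 250.2 in S, with 0 called by limma in either list and 3 and 2 at an unadjusted p under 0.05. The median log2 difference R minus S was -0.24 over the cornea epithelium probesets. Over the pigment cell probesets it was 0.35, opposite in direction to their summed intensity. The part of these cells in the members with lower values in R was not tested.

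**Figure D2:**
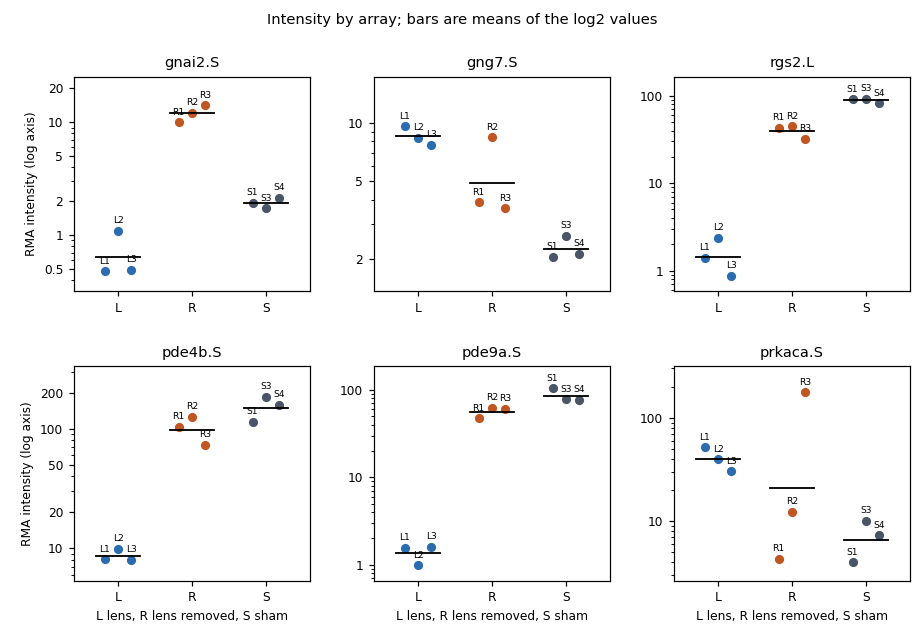
RMA intensity (log axis) of 6 members on each array, with a bar at the mean of the log2 values of lens (L), cornea after lens removal (R) and sham cornea (S). The 3 R arrays of gnai2.S lie between 10.05 and 14.2, above all S arrays, those of rgs2.L lie below all S arrays, and prkaca.S spans 4.35 to 175.6 within R.

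Lens differed from cornea in many more members. Against S, 12 members were higher in L and 28 lower, beside 22.9% higher and 30.5% lower among all probesets, and 57.1% of members against 53.4% of probesets were called in either direction. Against R, 4 were higher and 29 lower, beside 18.6% and 30.2% of all probesets (47.1% of members against 48.8% in either direction). The median log2 difference was 0.02 over the members and 0.02 over all probesets for L minus S, and -0.46 against -0.07 for L minus R. Brighter probesets as a whole lay lower in lens. Over the 7485 with a mean above 4 the median was -0.804 for L minus S and -0.817 for L minus R. For L against S, 1378 of them were called higher and 3902 lower. That mean counts more corneal than lens arrays, which favours probesets high in cornea. Values of L and S did not overlap in 23 members with L above and 31 with L below, or 54 of 70, beside 31.6%, 35.9% and 67.4% of all probesets, and the 40 members called were among these. For L and R the counts were 9, 28 and 37 of 70, beside 23.2%, 32.4% and 55.6%. At an unadjusted p under 0.05 there were 42 members (60.0%, against 59.3%) for L minus S and 38 (54.3%, against 54.9%) for L minus R. Of those 12 higher, 7 had a lens mean under 4, and among the called members 17 were over 2 log2 units lower in L and 2 over 2 units higher.

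The balance of directions depended on scaling. Quantile normalisation moved the median of all probesets for L minus S to 0.14 and gave 14 members higher and 24 lower (4115 and 3563 of all probesets), while cyclic loess gave 10 and 26 (3438 and 3721). For L minus R quantile normalisation moved that median to 0.11, with 11 members higher and 20 lower (3857 and 3351 of all probesets), and cyclic loess gave 8 and 23 (3245 and 3483). Quantile normalisation thus left more probesets higher than lower in lens over the whole array in both comparisons, and more members lower than higher. Without R2 the numbers of members called were 43 for L against S and 29 for L against R (8431 and 6994 of all probesets), and without S4 they were 35 and 29 (6972 and 7024). Of the 40 calls between L and S, 22 held in every alternative that gave a value, 2 of them higher (gng7.S and rgs11.L (2)) and 20 lower. Of the 33 calls between L and R, 18 held, 1 of them higher (gnaq.L (2)).

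**Figure D3:**
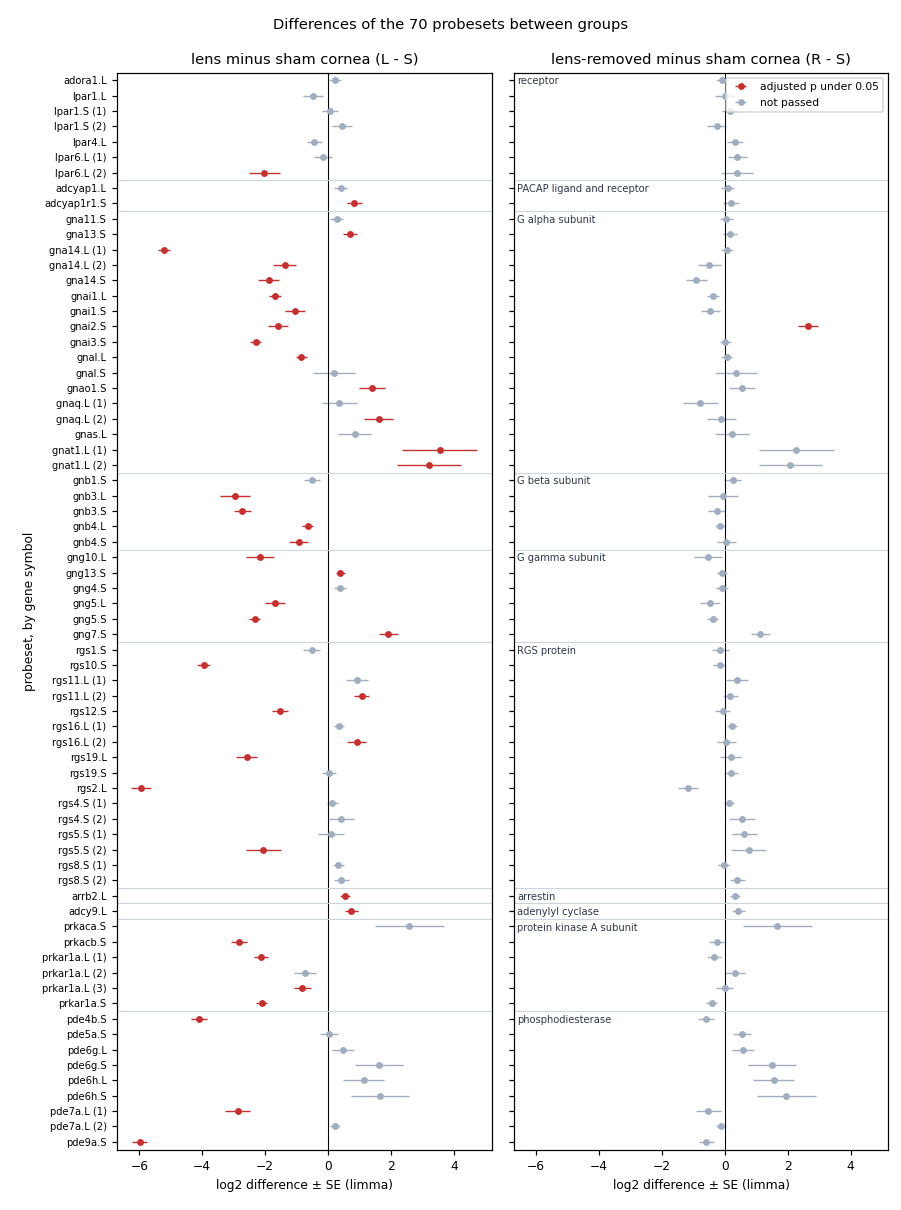
Log2 difference with its limma standard error for the 70 probesets, lens minus sham cornea (left) and cornea after lens removal minus sham cornea (right), with red points for an adjusted p under 0.05. On the left 40 points are red, 28 of them below 0, and on the right only gnai2.S is red.

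Among the receptors the pattern caught, 1 of 7 probesets fell in lens against sham cornea, beside 30.5% of all probesets. The lysophosphatidic acid receptor probeset lpar6.L (2) read 1.11, 0.844 and 2.33 in L, 3.79, 8.60 and 10.04 in R, and 8.80, 4.32 and 3.85 in S. Each lens array lay below each corneal array, and R and S overlapped. Its log2 difference was -2.02 for L minus S (adjusted p = 0.00710) and -2.41 for L minus R, while lpar6.L (1) gave -0.17 for L minus S. lpar4.L was lower in L than in R (-0.77, adjusted p = 0.0311), a call lost in 8 of 19 alternatives, and did not pass against S. The adenosine receptor adora1.L and the 3 lpar1 probesets passed in no comparison. The PACAP neuropeptide receptor adcyap1r1.S, which signals through stimulatory G proteins, was higher in L than in S (0.84, adjusted p = 0.0164) at group means under 4. That call was lost in 4 of 19 alternatives, among them cyclic loess and leaving out L1 or S3. The ligand adcyap1.L was at 0.41 and did not pass.

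The α subunits changed in both directions. Of 17 probesets for 11 genes, 5 were higher and 8 lower in L against S, and quantile normalisation or cyclic loess changed this to 7 and 6. The 5 and 8 were 29.4% and 47.1% of these probesets, beside 22.9% and 30.5% of all probesets. The inhibitory subunits gnai1, gnai2 and gnai3, which restrain adenylyl cyclase, were called lower in all 4 of their probesets. Of these, gnai1.S no longer passed under quantile normalisation (-0.28) or cyclic loess (-0.24). The gnai2.S call rests on a lens mean below the 5th percentile, and the paper's PCR gave the other direction. gnai3.S read 7.92, 10.6 and 9.89 in L, 41.7, 46.2 and 52.9 in R, and 42.1, 48.6 and 48.4 in S. All lens values lay below all corneal values, and R overlapped S. The log2 difference was -2.30 for L minus S (SE 0.18, adjusted p = 5.2e-06), -1.40 after quantile normalisation, and -2.31 for L minus R. gnai1.L gave -1.68 (adjusted p = 7.17e-05) and gnai1.S -1.05 (adjusted p = 0.0176) for L minus S.

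The Gq-class subunit gna14 showed the largest fitted fall of the α subunits. gna14.L (1) read 0.642, 0.587 and 0.648 in L, 24.7, 19.95 and 29.3 in R, and 21.4, 27.1 and 21.5 in S. The lens values sat below the 5th percentile while the corneal groups overlapped each other, so the fitted L minus S difference of -5.21 (adjusted p = 6.05e-08) has no exact size. gna14.L (2) fell by 1.37 on the log2 scale, and gna14.S was lower too (fitted difference -1.89, with a lens mean below the 5th percentile and so no exact size). Its relative gnaq, which activates phospholipase C in most tissues, was higher in lens in 1 of 2 probesets. gnaq.L (2) read 6.29, 7.79 and 8.02 in L, 2, 4.63 and 1.201 in R, and 1.61, 3.32 and 2.63 in S. Every lens array lay above every corneal array, with log2 differences of 1.60 for L minus S (adjusted p = 0.0146) and 1.71 for L minus R (adjusted p = 0.0114). gnaq.L (1), at 23.8, 32.0 and 17.8 in L against 16.2, 22.9 and 17.4 in S, did not pass.

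The α subunit gna13.S was higher in L than in S (0.71, adjusted p = 0.0259), as was gnao1.S, abundant in neurons (1.40, adjusted p = 0.0155), at S values of 0.839 to 1.095, which leave its difference without an exact size. With single arrays left out, the gna13.S call was lost without L1, L3, S1 or S4, and the gnao1.S call without S3. The olfactory-type stimulatory subunit gnal.L was lower in L than in S (-0.85, adjusted p = 0.00205) and than in R (-0.90), but both differences turned to just above 0 under quantile normalisation and cyclic loess. gnas.L, the stimulatory α subunit proper, read 14.5, 16.7 and 15.6 in L, 7.87, 21.4 and 6.24 in R, and 4.49, 17.3 and 8.39 in S. Its lens values were tight and lay within the range of both corneal groups, and it did not pass (0.85, adjusted p = 0.208). The Gq-class gna11.S did not pass either (0.27). Under quantile normalisation gnas.L passed in L against S at a log2 difference of 1.63 and gna11.S at 1.11.

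β subunits were lower in lens. Of 5 probesets for 3 genes, 4 fell in L against S and all 5 against R, beside 30.5% and 30.2% of all probesets. Yet under quantile normalisation or cyclic loess the falls that passed were the 2 of gnb3 in each comparison. gnb3.L read 1.83, 2.497 and 0.536 in L, 11.03, 10.02 and 9.16 in R, and 9.56, 11.8 and 10.3 in S. R and S overlapped and no lens array reached them. gnb3.S read 2.67, 1.76 and 1.21 in L, 8.74, 10.7 and 10.4 in R, and 11.5, 10.7 and 13.6 in S, again with every lens array below every corneal array. The L minus S differences were -2.96 for gnb3.L (adjusted p = 0.000619) and -2.73 for gnb3.S (adjusted p = 2.89e-05). gnb1.S read 77.1, 82.5 and 50.0 in L, 101.6, 146.1 and 100.6 in R, and 83.5, 122.6 and 88.1 in S. Its lens values lay below all corneal values, with a difference that passed against R (-0.74, adjusted p = 0.0388) and not against S (-0.50, adjusted p = 0.130). gnb4.L (-0.64 for L minus S and -0.50 for L minus R) passed in both comparisons, yet quantile normalisation and cyclic loess turned it to a positive difference, which passed against R. gnb4.S passed against S (-0.94, adjusted p = 0.0290), a call lost without L3, S3 or S4.

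γ subunits parted in direction. gng5.S read 11.3, 12.75 and 10.8 in L, 48.6, 41.2 and 44.6 in R, and 66.0, 51.2 and 59.6 in S. No lens array came near a corneal array. The L minus S difference was -2.34 (adjusted p = 2.87e-06), and gng5.L (-1.69) and gng10.L (-2.15, adjusted p = 0.00272) were lower too. gng10.L in R3, at 5.65 against 17.2 and 18.4 in R1 and R2, lay near the highest lens value of 5.68. gng7.S, described above, and gng13.S (0.39, adjusted p = 0.0482, without an exact size at a sham mean below the 5th percentile) were the γ probesets higher in L against S. The gng13.S call was lost in 16 of 19 alternatives. Among them were median scaling, quantile normalisation, cyclic loess, and leaving out any single L or S array. gng4.S did not pass.

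Of the 16 RGS probesets for 10 genes, 5 fell and 2 were higher in L against S. These were 31.25% and 12.5%, beside 30.5% and 22.9% of all probesets. rgs2.L read 1.40, 2.38 and 0.876 in L, below the 32.2 to 44.5 of R and the 82.1 to 92.0 of S. Lens and cornea were fully apart (L minus S -5.95, adjusted p = 5.59e-07). rgs10.S, an RGS protein of inhibitory α subunits, read 2.88, 2.26 and 2.59 in L, 32.7, 33.6 and 40.6 in R, and 51.0, 33.1 and 36.9 in S. All lens values again lay below all corneal values, with a difference of -3.95 (SE 0.20, adjusted p = 4.36e-07) and with R and S overlapping. rgs19.L (-2.59, adjusted p = 0.000175) and rgs12.S (-1.53) were lower as well. The probesets higher in lens were rgs11.L (2) (1.07, adjusted p = 0.00450) and rgs16.L (2) (0.91, adjusted p = 0.0308), both at lens intensities of 4.25 or less, and rgs1.S, rgs4.S and rgs8.S passed in no comparison. The rgs16.L (2) call was lost in 7 of 19 alternatives, among them cyclic loess, either offset, and leaving out L1, S1 or S3.

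Downstream, the cyclase and kinase genes measured fell on both sides. adcy9.L, an adenylyl cyclase isoform, was higher in L than in S (0.75, adjusted p = 0.0123), as was arrb2.L (0.54, adjusted p = 0.0128), both at intensities under 3 on every array and neither past the threshold under cyclic loess. Protein kinase A subunits were lower in 4 of 6 probesets against S, beside 30.5% of all probesets. The count was also 4 under quantile normalisation and cyclic loess. The catalytic subunit prkacb.S read 7.40, 6.98 and 7.23 in L, 34.95, 39.99 and 60.2 in R, and 70.4, 40.3 and 48.5 in S. Lens values were narrow and far below both corneal groups (L minus S -2.84, adjusted p = 1.58e-05). The type I regulatory subunit gave -2.13 for prkar1a.L (1) and -2.11 for prkar1a.S, while prkar1a.L (2) was at -0.73 and did not pass against S. prkar1a.L (3), the _x_at probeset, was also lower (-0.81, adjusted p = 0.0307), a call lost in 6 of 19 alternatives. The falls against S were thus in prkacb and prkar1a only.

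The other catalytic subunit, prkaca.S, read 51.8, 39.5 and 30.4 in L, 4.35, 12.35 and 175.6 in R, and 3.99, 10.05 and 7.30 in S. R3 was the highest of the 9 arrays, and the 3 lens arrays lay above every S array. The L minus S difference of 2.58 (SE 1.10) had an adjusted p of 0.0743. It passed without R3 (adjusted p = 0.00127), in a fit of L and S alone (adjusted p = 0.000396), and under quantile normalisation, at 3.12, and cyclic loess. Without R3 the L minus R difference passed too (2.435, adjusted p = 0.00392), against 0.91 with all arrays (adjusted p = 0.519). Since R3 is the outlying value of this same probeset, passing without it is no separate support for a difference. R3 also gave the highest value of rgs5.S (2), an RGS gene known from mammalian pericytes, at 14.5 against 2.88 and 3.24 in R1 and R2 and 0.682 to 0.782 in L. That probeset was lower in L than in S (-2.06, adjusted p = 0.0117), with no exact size since its lens mean lay below the 5th percentile, and rgs5.S (1) was at 0.08.

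Phosphodiesterases outside the photoreceptor fell in 3 of 5 probesets in L against S, beside 30.5% of all probesets. pde9a.S read 1.55, 0.985 and 1.59 in L, against 47.5 to 62.4 in R and 76.4 to 104 in S, a gap without any overlap. Its L minus S difference of -5.99 (SE 0.24, adjusted p = 9.66e-08) was close to that of rgs2.L. Both sizes rest on dim lens values, and at the weakest alternative they were -3.315 for pde9a.S and -3.338 for rgs2.L. pde4b.S read 8.10, 9.97 and 8.08 in L, against 73.8 to 125 in R and 114 to 186 in S (-4.11, adjusted p = 1.15e-06). pde7a.L (1), a cyclic AMP phosphodiesterase, read 6.97, 7.54 and 5.33 in L, 18.65, 31.4 and 61.9 in R, and 38.7, 65.05 and 43.7 in S. Its difference was -2.87 (adjusted p = 0.000259), R1 to R3 spread widely, and the dim pde7a.L (2) was at 0.21. pde5a.S, specific for cyclic GMP, passed in no comparison.

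The phototransduction members gnat1 (rod transducin α) and pde6g and pde6h (inhibitory γ subunits of the rod and cone phosphodiesterase) followed R2. gnat1.L (1) read 16.1, 34.2 and 4.15 in L, 3.48, 42.25 and 1.08 in R, and 1.02, 1.06 and 1.31 in S. pde6h.S read 3.04, 4.05 and 1.73 in L, 2.12, 20.7 and 0.934 in R, and 0.852, 0.875 and 0.937 in S. Across the 6 probesets of these genes R2 was the highest of the 9 arrays in 6, R3 the lowest R array in 6, L2 the highest L array in 5 and L3 the lowest L array in 5. In the photoreceptor probesets outside the members R2 was the highest R array in 16 of 17.

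Of these 6 probesets 0 passed the limma test between R and S, and 1 (pde6h.L, log2 difference 1.55, adjusted p = 0.314) had an unadjusted p under 0.05. For gnat1.L the R minus S differences were 2.27 and 2.08 (adjusted p = 0.423 and 0.387), and 0.79 and 0.81 without R2 (adjusted p = 0.664 and 0.565). Against S the lens was higher, by 3.55 (adjusted p = 0.0315) and 3.21 (adjusted p = 0.0231). Those calls were lost without L1, L2, S1, S3 or S4 (adjusted p 0.0553 to 0.110) and held without R2 (0.00311 and 0.00164). Against R the lens did not pass with all arrays and did without R2 (2.76 and 2.40, adjusted p = 0.0218 and 0.0152). R2 had been singled out by its photoreceptor transcripts, so passing without it is no separate support for a difference. pde6g.S (L minus S 1.63) and pde6h.S (1.64) failed with all arrays and passed without R2 (adjusted p = 0.00365 and 0.00556). There R2 enters only through the spread that the fit shares between groups. The photoreceptor marker sums given above moved with these values in L and in R, and their part in the lens differences was not tested.

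gnb3, the β subunit of cone transducin in mammals, did not follow them in R. R2 read 10.02 for gnb3.L and 10.7 for gnb3.S, close to R1 and R3, and the L values were the lowest. Within the lens, L3 was the lowest array for both gnb3.L and gnb3.S. L2 was the highest for gnb3.L and L1 for gnb3.S. gnal.S was high in R2, at 41.7 against 8.69 and 4.16 in R1 and R3 and 7.70 to 10.7 in S. Across all members R2 exceeded the next R array by more than 2-fold in 11 of 70 and R3 did in 3. The 11 include every probeset of gnat1, pde6g and pde6h. The share over all probesets was not counted, so these counts say nothing particular to the members.

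**Figure D4:**
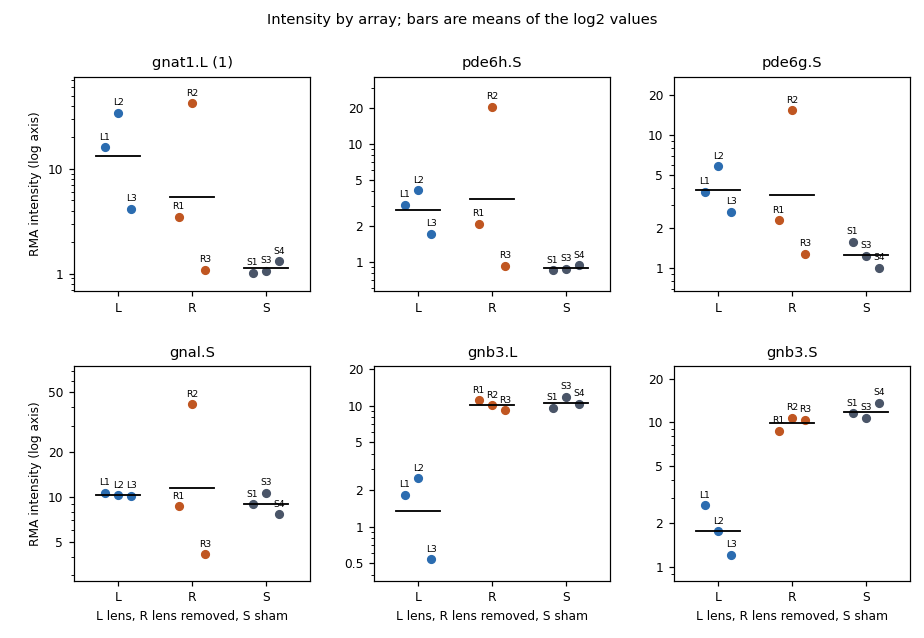
RMA intensity (log axis) of 6 members on each array, with a bar at the mean of the log2 values of lens (L), cornea after lens removal (R) and sham cornea (S). R2 is the highest array for gnat1.L (1), pde6h.S, pde6g.S and gnal.S, while gnb3.L and gnb3.S lie at 8.74 to 13.6 in all corneal arrays and at 2.67 or less in lens.

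Both homoeologous copies were measured for 11 genes. In 8 the calls between L and S were alike in all probesets: lower for gna14, gnai1, gnb3, gnb4 and gng5, and not passed for lpar1, pde6g and pde6h. They differed for gnal, prkar1a and rgs19. rgs19.S, at 4.10, 3.00 and 2.62 in L, against 3.02, 2.99 and 3.40 in S, did not pass (0.02), where rgs19.L fell to 3.96, 6.73 and 2.69 in L, against 26.0, 24.6 and 24.3 in S. The difference between copies was not tested. No gene had both a higher and a lower call.

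Listed partners outside the members were called in both directions, where 22.9% of all probesets were higher and 30.5% lower in L against S. Between R and S, 14.5% of all probesets had an unadjusted limma p under 0.05. Of 23 probesets for 16 of 34 listed signalling partners, 6 were higher and 8 lower in L against S. Between R and S limma called 0 of them, with 4 at an unadjusted p under 0.05. For L against S the rule named cct2.S, a subunit of the chaperonin that folds β subunits, on the higher side (2.55 to 3.27 in 3 probesets). On the lower side in L against S it named kalrn.L (-3.84), git2.L (-2.84) and rhoa.L (-1.43). The 3 higher probesets thus stand for a single gene, and they include some with the _x_at mark, which can bind other transcripts. Of 21 probesets for 15 of 58 listed cyclic AMP effectors and CREB genes, 3 were higher and 7 lower, with 0 called between R and S and 4 at an unadjusted p under 0.05. The kinase anchoring genes akap2 (5.22 and 6.36) and akap10.L (1.34) were the higher ones in L against S. The CREB-family factor creb3.S (-2.92), the small GTPase rap1b.L (-1.35) and the coactivator crebbp.L (-0.77) were among the lower.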

How the data were processed

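RNA from each pool was amplified and hybridised to a 1-colour Affymetrix array. The deposited table holds linear RMA intensity values, which the authors normalised by RMA over the 9 arrays, with 1 column per array, and the submitters' notes name no genome build. Gene symbols came from the platform annotation: 9304 of 15491 probesets had 1 symbol, 195 several and 5992 none, and all 70 member gene IDs were in the RefSeq gene table. The 120 control probesets were left out, and 0 columns of the table were unused.

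Values were taken to log2, and 1 model of the 3 groups (6 residual degrees of freedom, no covariate) was fitted with lmFit and eBayes of limma 3.58.1 in R 4.3.3, giving L minus S, L minus R and R minus S. P-values were two-sided and adjusted by Benjamini-Hochberg over all 15491 probesets, with a threshold of 0.05. Tables and plots used python 3.11.15, pandas 2.3.3 and matplotlib 3.10.9. The fitting code was tested on simulated data. Precision was limited by the 3 arrays per group.

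The members and gene lists were chosen with earlier results of these data known. Probesets were named by a fixed rule. It took calls or the 10 smallest p-values between R and S, phototransduction genes and the highest mean of each role. It also took the 3 largest called differences of each role in each direction in the lens comparisons. Genes with several probesets were taken where calls went in opposite directions or differences lay over 2 log2 units apart. Outside the members, the 3 smallest p-values in each direction were taken for R against S and L against S. Other members named with a value were chosen after their values were seen. Alternatives were median scaling, quantile normalisation, cyclic loess, offsets of 1 and 8 before log2, a filter at a mean of 4, trended and robust eBayes, array weights, fits of only the compared groups, a replicate block and leaving out each array. Leaving out R2 and S4 together was chosen after seeing the data.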

Additional observations from a re-analysis of the deposited data

How the results depend on the processing

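The number of members called between R and S, 1 in the model reported, was 2 with array weights, 2 with an offset of 1 before log2 and 2 with an offset of 8. It was 0 with R2 and S4 both left out, and stayed at 1 on leaving out any single array. Between L and S the 40 calls became 31 to 43 on leaving out single arrays, beside 6972 to 8883 of all probesets (8275 with all arrays). Between L and R the 33 calls became 28 to 36, beside 6747 to 7518 (7558 with all arrays). Over all probesets the 174 calls between R and S became 637 with array weights, 334 with an offset of 8, 297 without R2, 79 without S1, 60 without S4, 80 in a fit of the 2 groups alone and 48 without R2 and S4.

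Signs turned under a pair of scalings. For gnal.L the L minus S difference, -0.85 as reported, was 0.0736 with quantile normalisation and 0.0907 with cyclic loess, and L minus R, -0.90 as reported, was 0.00864 and 0.0633. For gnb4.L the L minus S difference, -0.64 as reported, was 0.253 with quantile normalisation and 0.248 with cyclic loess, and L minus R, -0.50 as reported, was 0.405 (adjusted p = 0.0386) and 0.422 (adjusted p = 0.0332). The cause was not tested.

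Replicate numbers in the labels were not taken as pairing, since no source says what they share. The deviations of same-numbered L and R arrays correlated at 0.0222, 0.132 and 0.0916. Between L and R, every array still correlated best with its own number, as a hint from the data. R2 and S3, of different number, correlated at 0.1965, so correlations of this size do not by themselves show pairing. With the replicate number as a block the members called numbered 0 between R and S (13 of all probesets), with gnai2.S at 2.51 and adjusted p = 0.105. They numbered 33 between L and S (6545 of all probesets) and 29 between L and R (6720). Dim probesets limit what can be read: 7 of the 12 calls higher in L than in S rest on lens means under 4, and no depth or detection call was used.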

Other observations

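Other G protein-coupled receptors outside the members were measured by 39 probesets for 27 of 95 listed genes. In L against S, 12 were higher and 9 lower, and limma called 0 between R and S, with 6 at an unadjusted p under 0.05. Among all probesets 22.9% were higher and 30.5% lower in L against S. Between R and S 14.5% had an unadjusted p under 0.05. The protease-activated receptor f2rl1.S was lower in lens by a log2 difference of -4.99, the endothelin receptor ednra.L by -2.87 and the purine receptor p2ry1.S by -1.60. The chemokine scavenger receptor ackr3.L (2.11), the Hedgehog transducer smo.S (1.34) and the serotonin receptor htr1a.L (1.21) were higher, while a probeset of smo.L was lower (-1.27).

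Marker lists moved between the corneal groups to differing degrees. Among all probesets limma called 1.12% between R and S, and 14.5% had an unadjusted p under 0.05. Lens markers summed to 156.7, 67.9 and 118.6 in R1, R2 and R3, against 35.5 to 38.3 in S, with 2 of 19 probesets called higher and 11 at an unadjusted p under 0.05. Neuron markers summed to 182.9, 251.9 and 202.5 in R, against 109.5 to 113.0 in S, with 0 of 20 called by limma and 10 at an unadjusted p under 0.05. Photoreceptor markers, members included, had 1 of 23 called higher and 9 at an unadjusted p under 0.05. Stroma markers summed to 5651 to 7179 in R and 4844 to 7765 in S, with 0 of 21 called and 4 at an unadjusted p under 0.05, and 17 of 21 were lower in L than in S. Muscle markers had 1 of 24 called, with 3 at an unadjusted p under 0.05, and red blood cell markers 0 of 11 called, with 1 at an unadjusted p under 0.05. Their part in the member differences was not tested.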
